A study of Mus musculus with 12 samples.

Results

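The insulin-like growth factor (IGF) system of the mouse meninges is described here through 10 genes, of 23238 gene symbols in the deposited files. They were chosen by name: the ligand genes Igf1 and Igf2, the receptor genes Igf1r and Igf2r, and the binding protein genes Igfbp2 to Igfbp7. All 10 passed the filter on low values, and 9 had reads in each of the 12 libraries, the exception being Igfbp3 with reads in 10. The libraries come in 3 groups of 4, named in the titles AD_TG, AD_B6 and SJL_B6. Every group shares the strain label C57BL/6, the tissue label meninge and an age of 20 weeks. Per the design text, lymphatic endothelial cells of the meninges were separated magnetically from 3 to 4 mice per strain. Total RNA, 500 ng of it, went into a Lexogen QuantSeq library, which reads transcripts near an end. The labels do not spell out the group names, a transgene or its promoter, and do not tie a library to an animal, so p-values here measure only the spread between these samples, which may be technical. The AD_B6 and SJL_B6 titles differ in their first element and the AD_TG and AD_B6 titles in their second, so AD_TG and SJL_B6 differ in both, and what goes with each element cannot be told apart in that comparison.

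IGF1 and IGF2 are small secreted proteins that drive growth and survival by activating the receptor tyrosine kinase IGF1R, which signals through the PI3K-AKT and MAP kinase pathways. IGF2R carries IGF2 into the cell for degradation, and the binding proteins hold IGFs outside cells, prolong their life and release or withhold them, in part after being cut by proteases. In rodent brain the leptomeninges and the choroid plexus are known sites of strong Igf2 expression, where the gene escapes the imprinting that silences the maternal copy in most other mouse tissues; the files hold no allele information.

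The windows below are the 250 bases before a RefSeq transcription start (GRCm38.p6), shown for the members in the 2 pairs of members that passed a correlation test across libraries (Igf1r with Igfbp2, Igfbp4 with Igfbp5) and for Igf2, the most abundant per kilobase. Igf2 has 4 listed starts and Igfbp2 has 2; of these, 1 window with a GGGCGG match is shown for each gene. Capitals mark matches to the motifs searched on both strands: GGGCGG (the GC box), TATAAA and TTTAAA.
Igf2, chr7:142657497-142657746, minus strand: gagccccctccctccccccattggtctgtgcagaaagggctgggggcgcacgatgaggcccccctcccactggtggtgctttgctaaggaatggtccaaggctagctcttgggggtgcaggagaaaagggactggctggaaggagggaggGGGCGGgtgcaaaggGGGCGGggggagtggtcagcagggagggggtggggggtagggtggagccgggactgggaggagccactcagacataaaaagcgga
Igf1r, chr7:67952007-67952256, plus strand: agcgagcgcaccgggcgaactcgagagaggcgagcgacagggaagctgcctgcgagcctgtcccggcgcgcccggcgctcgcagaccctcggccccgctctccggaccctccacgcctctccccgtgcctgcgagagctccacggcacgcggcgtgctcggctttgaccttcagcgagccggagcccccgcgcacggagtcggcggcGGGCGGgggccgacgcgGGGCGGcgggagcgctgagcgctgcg
Igfbp2, chr1:72824230-72824479, plus strand: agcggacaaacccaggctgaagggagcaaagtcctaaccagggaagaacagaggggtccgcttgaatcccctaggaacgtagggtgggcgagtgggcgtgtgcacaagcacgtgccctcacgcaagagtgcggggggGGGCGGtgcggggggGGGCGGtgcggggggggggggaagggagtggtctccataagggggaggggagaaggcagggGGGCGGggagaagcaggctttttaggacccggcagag
Igfbp4, chr11:99040994-99041243, plus strand: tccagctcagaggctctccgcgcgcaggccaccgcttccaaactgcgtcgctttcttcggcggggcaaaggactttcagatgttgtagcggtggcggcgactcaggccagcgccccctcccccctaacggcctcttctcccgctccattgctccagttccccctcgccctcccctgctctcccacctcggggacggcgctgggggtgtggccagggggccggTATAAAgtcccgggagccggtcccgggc
Igfbp5, chr1:72874866-72875115, minus strand: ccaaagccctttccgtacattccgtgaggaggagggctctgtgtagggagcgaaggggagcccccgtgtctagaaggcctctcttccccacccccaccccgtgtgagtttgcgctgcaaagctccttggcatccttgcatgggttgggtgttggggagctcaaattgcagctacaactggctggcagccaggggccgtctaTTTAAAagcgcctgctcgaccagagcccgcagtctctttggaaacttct
The search covered 14 windows of the 10 genes, each from 250 bases before to 50 after a start. TATAAA was found in the windows of Igfbp4, with its first base at position -28 from the start, and of Igfbp6, on the other strand, and 13.62% of all 32851 RefSeq windows hold it. TTTAAA was found in Igfbp5, with its first base at position -49, against 13.16% of all windows. GGGCGG lay in windows of 5 genes (Igf1r, Igf2, Igf2r, Igfbp2 and Igfbp7) and in 35.66% of all windows. Igfbp4 and Igfbp5, which moved together across libraries, each hold 1 AT-rich match near the start, in different letters, and no GGGCGG. These are matches of letters, not tested sites.

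Values are the deposited log2(x + 1) of scaled amounts unless another scale is named, and libraries are given in the order of replicates 1 to 4. Estimated assigned reads ran from 4024163 to 9312857 per library, and 8748 (AD_B6 replicate 3) to 12217 symbols had reads. The markers of the labelled cell type were uneven. Prox1, which sets lymphatic identity, was read in 2 of 12 libraries and Flt4, the VEGF-C receptor, in 6. Reads were found in 11 libraries for Lyve1, shared by lymphatic endothelium and some macrophages, in 9 for Ccl21a and Itga9, in 6 for Mmrn1 and Sox18, in 4 for Reln and in 1 for Tbx1. Pdpn, Foxc2, Nrp2 and Nr2f2, which other cell types also express, had reads in all 12, with means of 9.31, 8.77, 9.16 and 10.25. Some genes of other cells were high in every library. The choroid plexus gene Ttr had 13.38 to 19.19, the fibroblast gene Col1a2 11.98 to 14.53 and the macrophage gene Csf1r 11.69 to 13.24. Other genes of the choroid plexus and fibroblast lists were not. Folr1 and Kcne2 of the choroid plexus list were listed at 0 in SJL_B6 replicate 2. Of the fibroblast list, Dpt had reads in 4 libraries and Slc6a13 in 3. In the mean log2 over all 9 choroid plexus markers, AD_B6 replicate 1 (7.77) and SJL_B6 replicate 2 (6.06) stood apart from the other 10 libraries (10.23 to 12.34). Unread genes are listed at a small value above 0 in 5 libraries and at 0 in the other 7. DSCR1 of the series title is Rcan1 in the mouse, and its levels overlapped among the groups, from 6.47 to 9.28 in AD_TG, 7.34 to 9.55 in AD_B6 and 5.21 to 9.05 in SJL_B6.

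Together the 10 genes made up 0.372 to 0.793% of a library's linear total, least in AD_B6 replicate 1 and most in AD_B6 replicate 3. Compared between genes as median linear amount per kilobase of the longest transcript, Igf2 stood first at 2179, followed by Igfbp4 at 1510, Igfbp5 at 1494, Igfbp2 at 1224 and Igfbp7 at 1183. Igfbp6 followed at 420, Igf1r at 202, Igf1 at 168, Igf2r at 130 and Igfbp3 at 96.8. Because the kit reads transcript ends, dividing by length lowers long transcripts such as Igf1r in this order. Of the ligand genes, Igf2 stood above Igf1 on this scale, and both receptor genes were near Igf1. Without division by length, the median linear amount was 10291 for Igf2, 8976 for Igfbp5, 5784 for Igfbp4, 2307 for Igf1r, 1182 for Igf1 and 1157 for Igf2r. Igfbp2, Igfbp7 and Igfbp6 had 1599, 1419 and 467, so on that scale Igf1r stood above them and above Igf1. By mean log2 over the libraries, Igfbp5 (13.27) lay slightly above Igf2 (13.16).

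Between the groups, no gene of the IGF system passed the test. In limma, with adjustment over the 11955 genes tested, 0 of 10 were called in AD_TG against AD_B6, in AD_B6 against SJL_B6 and in AD_TG against SJL_B6, and the background was 0.0% of all genes tested in each. At an unadjusted p below 0.05 the count was also 0 of 10 in each, where 5.35, 5.41 and 2.99% of all genes tested passed in those 3 comparisons. In none of the 10 genes did the groups fail to overlap, which 2.88, 2.82 and 2.53% of all genes tested did. The median difference over the 10 genes was 0.14 for AD_TG minus AD_B6, -0.16 for AD_B6 minus SJL_B6 and -0.21 for AD_TG minus SJL_B6, beside 0.41, -0.31 and 0.08 over all genes tested. Differences above 0 numbered 7, 2 and 4 of 10, beside 62.8, 40.2 and 53.3% of all genes tested. The comparisons share groups, so their values are not independent of each other. In bulk RNA, fewer cells of a type and less RNA per cell cannot be told apart.

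**Figure D1:**
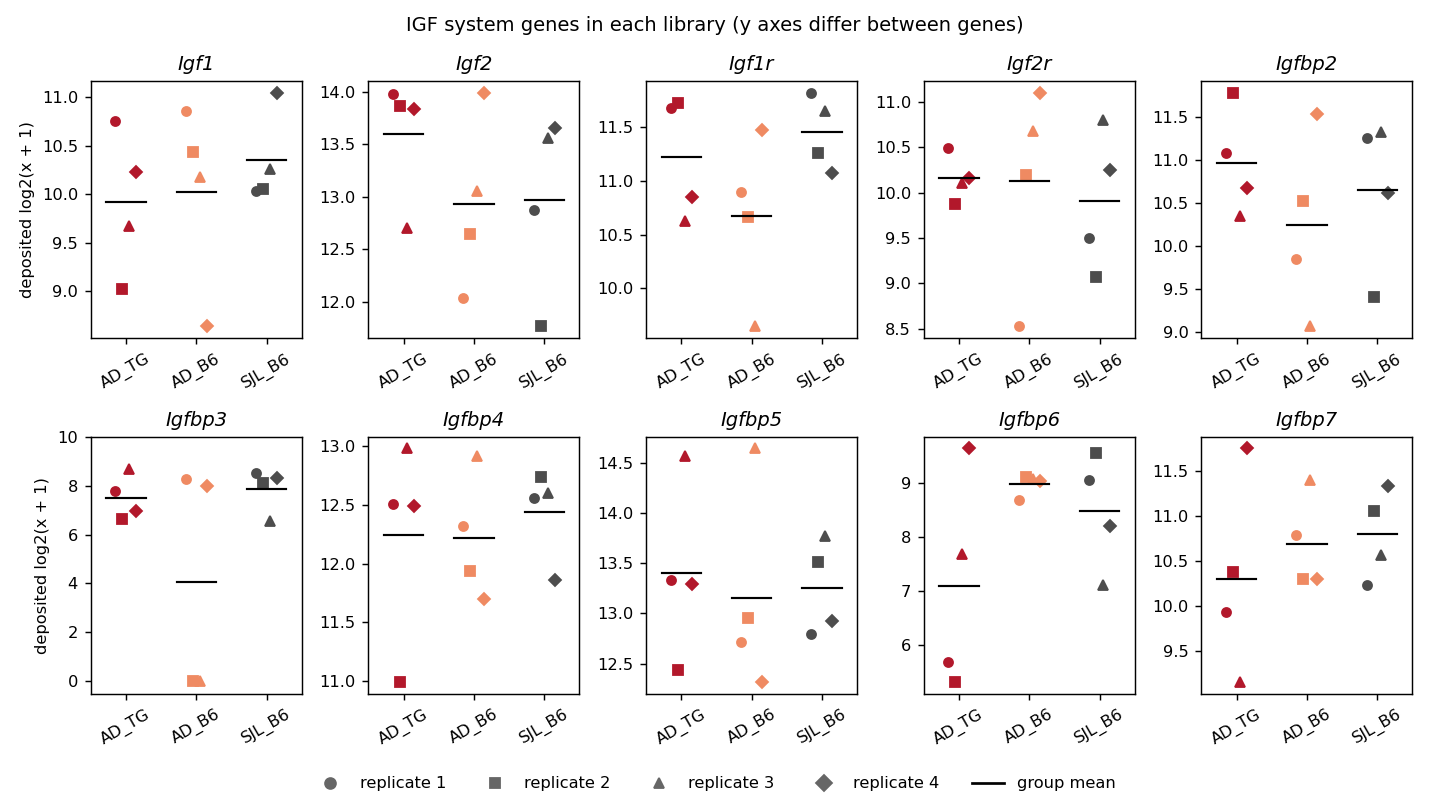
Deposited log2(x + 1) of each IGF system gene in each library, with groups along the x axis, 1 marker shape per replicate number and a line at the group mean (n = 4). The groups overlap for all 10 genes; Igfbp3 is listed at 0 in AD_B6 replicates 2 and 3, and Igfbp6 is lowest in AD_TG replicates 1 and 2.

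Igf2, the fetal growth ligand that stays on in the meninges, was the most abundant member per kilobase. It had 13.97, 13.86, 12.70 and 13.84 in AD_TG, against 12.04, 12.65, 13.05 and 13.99 in AD_B6 and 12.87, 11.77, 13.56 and 13.66 in SJL_B6. Of the AD_TG libraries 3 lay close together near the top of the whole range and replicate 3 lay low, while AD_B6 and SJL_B6 each spread over most of the range, so the groups overlapped. AD_TG averaged 13.59 ± 0.60 and AD_B6 12.93 ± 0.82 (SD, n = 4 each), a difference of 0.66 (SE 0.39, 95% interval -0.14 to 1.47, adjusted p = 0.871, limma). The difference was 0.63 for AD_TG minus SJL_B6 (SE 0.39, adjusted p = 0.999, limma) and -0.03 for AD_B6 minus SJL_B6. The choroid plexus markers, which moved with Igf2 across libraries, averaged 10.23 to 11.87 in AD_TG, 7.77 to 12.34 in AD_B6 and 6.06 to 11.45 in SJL_B6. Their part in the difference was not tested.

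Igf1, the ligand that mediates growth hormone action and is also made by macrophages, had 10.75, 9.03, 9.67 and 10.24 in AD_TG. It had 10.86, 10.43, 10.18 and 8.64 in AD_B6 and 10.03, 10.06, 10.27 and 11.05 in SJL_B6. The lowest library was AD_B6 replicate 4 and the highest SJL_B6 replicate 4, and the groups overlapped throughout. Differences were -0.11 for AD_TG minus AD_B6 (95% interval -1.25 to 1.03), -0.32 for AD_B6 minus SJL_B6 (-1.46 to 0.82) and -0.43 for AD_TG minus SJL_B6 (-1.57 to 0.71). Intervals of this width do not show that the groups were alike.

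Igf1r, the signalling receptor of both ligands, had 11.68, 11.73, 10.63 and 10.85 in AD_TG. It had 10.90, 10.66, 9.65 and 11.48 in AD_B6, against 11.82, 11.26, 11.66 and 11.08 in SJL_B6. Of the AD_B6 libraries 3 lay below every SJL_B6 library, and replicate 4 lay among them. The difference AD_B6 minus SJL_B6 was -0.78 (SE 0.42, 95% interval -1.65 to 0.09, adjusted p = 0.869, limma), that of AD_TG minus AD_B6 0.55 (SE 0.42, adjusted p = 0.880, limma) and that of AD_TG minus SJL_B6 -0.23. With 1 library left out, AD_B6 minus SJL_B6 ran from -1.05 to -0.44, the smallest size without AD_B6 replicate 3. The lymphatic endothelial markers (9 of 13 tested) also lay lower in AD_B6, with a mean log2 of 3.74 to 4.21. They had 4.73 to 5.96 in SJL_B6 and 4.81 to 6.19 in AD_TG. Over all genes tested the mean log2 was lower too, at 6.14 in AD_B6 against 6.61 in SJL_B6 and 6.77 in AD_TG. The pan-endothelial list averaged 3.99, 5.30 and 5.19 in these groups, and the mural cell list 3.69, 4.74 and 4.60. The neutrophil and neuron lists averaged highest in AD_B6. Within the lymphatic list, Nr2f2 (10.32 against 10.12) and Mmrn1 (1.84 against 0.02) averaged higher in AD_B6 than in SJL_B6. Prox1 was unread in every AD_TG and AD_B6 library. The part of lymphatic endothelial or other cells in the Igf1r values was not tested.

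Igf2r, the clearance receptor for IGF2 that also sorts lysosomal enzymes, had 10.49, 9.88, 10.10 and 10.16 in AD_TG. It had 8.53, 10.20, 10.68 and 11.10 in AD_B6 and 9.50, 9.08, 10.80 and 10.25 in SJL_B6. AD_TG spread least, with an SD of 0.26 against 1.13 in AD_B6 and 0.77 in SJL_B6 (n = 4 each), and lay inside the AD_B6 range. Differences were 0.03, 0.22 and 0.25 for AD_TG minus AD_B6, AD_B6 minus SJL_B6 and AD_TG minus SJL_B6. Airn, the noncoding RNA read antisense through Igf2r, had reads in 8 libraries. Whether the authors counted by strand is not given in the sources used here, so reads of this pair may be mixed.

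Igfbp2, a binding protein of the choroid plexus and leptomeninges that prefers IGF2, had 11.08, 11.78, 10.34 and 10.67 in AD_TG. It had 9.84, 10.52, 9.06 and 11.54 in AD_B6 and 11.26, 9.40, 11.33 and 10.62 in SJL_B6. AD_B6 held the lowest library and also one of the highest, so the groups overlapped. The difference was 0.73 for AD_TG minus AD_B6 (SE 0.54, 95% interval -0.38 to 1.84, adjusted p = 0.874, limma), -0.41 for AD_B6 minus SJL_B6 and 0.32 for AD_TG minus SJL_B6. With 1 library left out, AD_TG minus AD_B6 ran from 0.34 (without AD_B6 replicate 3) to 1.16 (without AD_B6 replicate 4).

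Igfbp3, the main carrier of IGFs in blood, was the least abundant member and the one with gaps. It had 7.79, 6.62, 8.66 and 6.96 in AD_TG and 8.49, 8.10, 6.55 and 8.33 in SJL_B6. In AD_B6 it had 8.28 and 7.96 in replicates 1 and 4 and was listed at 0 in replicates 2 and 3. The AD_B6 libraries thus lay within the range of the other groups or at 0, and estimated reads ran from 54 to 391 where it was read. The differences on this scale, 3.44 for AD_TG minus AD_B6 (SE 1.89, adjusted p = 0.871, limma) and -3.81 for AD_B6 minus SJL_B6 (SE 1.89, adjusted p = 0.869, limma), rest on those 2 libraries, and no fold is given. AD_B6 replicate 3 was also the library with the fewest symbols read.

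Igfbp4, an inhibitory binding protein cut by the protease PAPP-A, had 12.51, 10.99, 12.98 and 12.49 in AD_TG. It had 12.32, 11.94, 12.92 and 11.70 in AD_B6 and 12.56, 12.74, 12.60 and 11.86 in SJL_B6. Igfbp5, the most conserved of the family and an extracellular matrix binder, had 13.33, 12.44, 14.57 and 13.29 in AD_TG, 12.72, 12.95, 14.65 and 12.32 in AD_B6 and 12.79, 13.51, 13.77 and 12.93 in SJL_B6. Both were highest in replicate 3 of AD_TG and of AD_B6, and AD_TG replicate 2 and AD_B6 replicate 4 were among the lowest libraries for both. For Igfbp4, AD_TG minus AD_B6 was 0.02 (95% interval -0.74 to 0.78), AD_B6 minus SJL_B6 -0.22 and AD_TG minus SJL_B6 -0.20. For Igfbp5 they were 0.25 (95% interval -0.59 to 1.09), -0.09 and 0.16.

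Igfbp6, a binding protein with a marked preference for IGF2, had 5.69, 5.31, 7.69 and 9.64 in AD_TG. It had 8.69, 9.10, 9.08 and 9.03 in AD_B6 and 9.05, 9.56, 7.11 and 8.20 in SJL_B6. AD_TG replicates 1 and 2, with an estimated 29 and 50 reads, were the lowest of the 12 libraries, while AD_TG replicate 4 was the highest, so AD_TG spanned the whole range. AD_B6 libraries lay within a narrow band. AD_TG averaged 7.08 ± 1.998 and AD_B6 8.98 ± 0.19 (SD, n = 4 each), a difference of -1.89 (SE 0.99, 95% interval -3.94 to 0.15, adjusted p = 0.871, limma). AD_TG minus SJL_B6 was -1.40 (SE 0.99, adjusted p = 0.999, limma) and AD_B6 minus SJL_B6 0.50.

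Igfbp7, a low-affinity IGF binder of vessels and matrix, had 9.93, 10.38, 9.15 and 11.76 in AD_TG. It had 10.78, 10.29, 11.40 and 10.30 in AD_B6 and 10.23, 11.06, 10.56 and 11.33 in SJL_B6. AD_TG held both the lowest and the highest library. Differences were -0.39 for AD_TG minus AD_B6, -0.10 for AD_B6 minus SJL_B6 and -0.49 for AD_TG minus SJL_B6, each with an SE of 0.51.

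**Figure D2:**
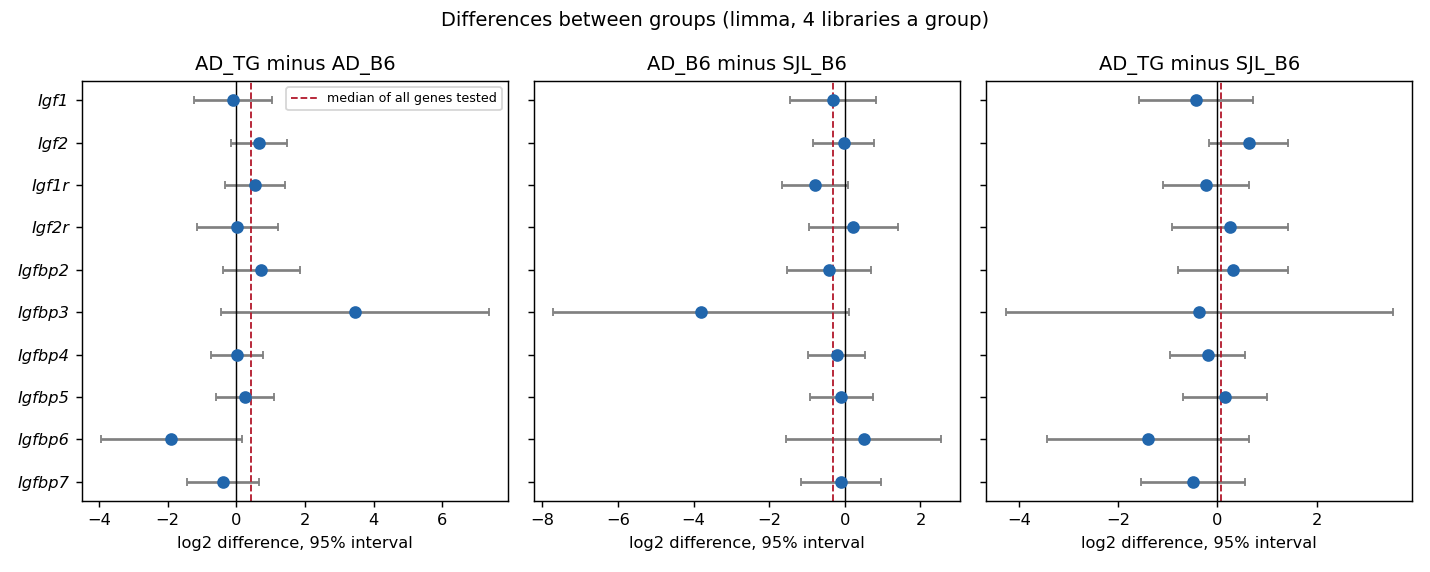
Log2 differences between groups for the 10 genes with 95% intervals from limma; the dashed line marks the median of all genes tested (0.41, -0.31 and 0.08 from left to right). Every interval includes 0, and those of Igfbp3 and Igfbp6 are the widest.

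Variation between libraries of the same group was set against that of genes of like mean level. Igf2 had a within-group SD of 0.77, against a median of 0.49 for 50 genes of like mean level (within 0.5 log2), and 80.0% of those genes had a lower SD. Igfbp5 had 0.82 against 0.52 for 43 such genes, of which 86.0% were lower. Igfbp2 had 0.87 against 0.63 for 548 genes, of which 84.7% were lower. Igf1 (0.76 against 0.72) and Igf1r (0.58 against 0.57) varied about as much as genes of like mean. Igfbp3 (2.81 against 2.81) and Igfbp6 (1.31 against 1.43) had an SD no higher than the median of such genes.

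The 9 members read in every library were set against 6 lists of cell type markers, 54 relations in all, with two-sided permutation tests of 100000 resamples. Adjusted over these, 2 Pearson correlations passed, Igf2 with the choroid plexus list and Igfbp5 with the meningeal fibroblast list. The libraries form separate clusters on the choroid plexus list, so no correlation over all 12 is given for it, and the call for Igf2 is over libraries of both clusters. Within the 10 libraries of the larger cluster, r was 0.73 for Igf2 (permutation p = 0.0228) and 0.71 for Igfbp2 (permutation p = 0.0154), and neither passed the adjustment (adjusted permutation p = 0.176 and 0.167). In the 2 libraries that stood apart, AD_B6 replicate 1 and SJL_B6 replicate 2, Igf2 was 12.04 and 11.77, the lowest of all. Without AD_B6 replicate 1 alone, the call for Igf2 missed the threshold narrowly (adjusted permutation p = 0.0502). For Igf2r, r within the 10 libraries was 0.25 (permutation p = 0.487).

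Igfbp5 followed the meningeal fibroblast list (11 of 13 tested), which holds the collagen genes Col1a1, Col1a2 and Col3a1. Pearson's r over 12 libraries was 0.80 (permutation p = 0.00171, adjusted p = 0.0462) and Spearman's rho 0.76 (permutation p = 0.00588, adjusted p = 0.0794). Without the 2 libraries farthest from the list's median, r was 0.89 (permutation p = 0.001), and with group means subtracted it was 0.80. The list was highest in AD_TG replicate 3 (10.05) and AD_B6 replicate 3 (9.87), the libraries with the most Igfbp5, and lowest in AD_B6 replicate 2 (5.94). With any 1 library left out, r ran from 0.71 to 0.92, and the adjusted permutation p was at or above 0.05 in 11 of 12 cases, up to 0.203, and 0.00675 without AD_B6 replicate 2. After quantile scaling, Igfbp5 with the meningeal fibroblast list had an adjusted permutation p of 0.0799. Within the 7 libraries that list unread genes at 0, r was 0.74 (permutation p = 0.0644), and the other 5 were too few for a value.

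Other relations did not pass the adjustment. Igfbp4 had r = 0.70 with the fibroblast list (rho 0.76) and Igf1r 0.68 with the lymphatic endothelial list (rho 0.63), both with an adjusted permutation p of 0.112 for r. For Igf1r, r was 0.43 without the 2 libraries farthest from the list's median and 0.52 with group means subtracted. Igfbp2 had r = -0.55 with the macrophage list (rho -0.55, adjusted permutation p = 0.366), which was -0.86 with group means subtracted (adjusted permutation p = 0.014) and -0.53 without the 2 libraries farthest from the list's median. The p-value after subtraction tends to be too small, because the shuffling ignored the groups. With the fibroblast list Igfbp2 had r = -0.53 (rho -0.62, adjusted permutation p = 0.366), and -0.83 without the 2 farthest libraries (adjusted permutation p = 0.0351). Igf1 had r = 0.34 with the macrophage list (rho 0.22, adjusted permutation p = 0.607). Igfbp6 and Igfbp7 reached no r beyond 0.50 in size over the 12 libraries with any of the 6 lists. Within the 7 libraries that list unread genes at 0, Igfbp7 had r = 0.83 with the pan-endothelial list (permutation p = 0.014). There it had 0.75 with the mural cell, 0.73 with the macrophage and 0.70 with the fibroblast list. With the lymphatic endothelial and choroid plexus lists it had 0.29 and 0.08, and no relation passed the adjustment in that setting.

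**Figure D3:**
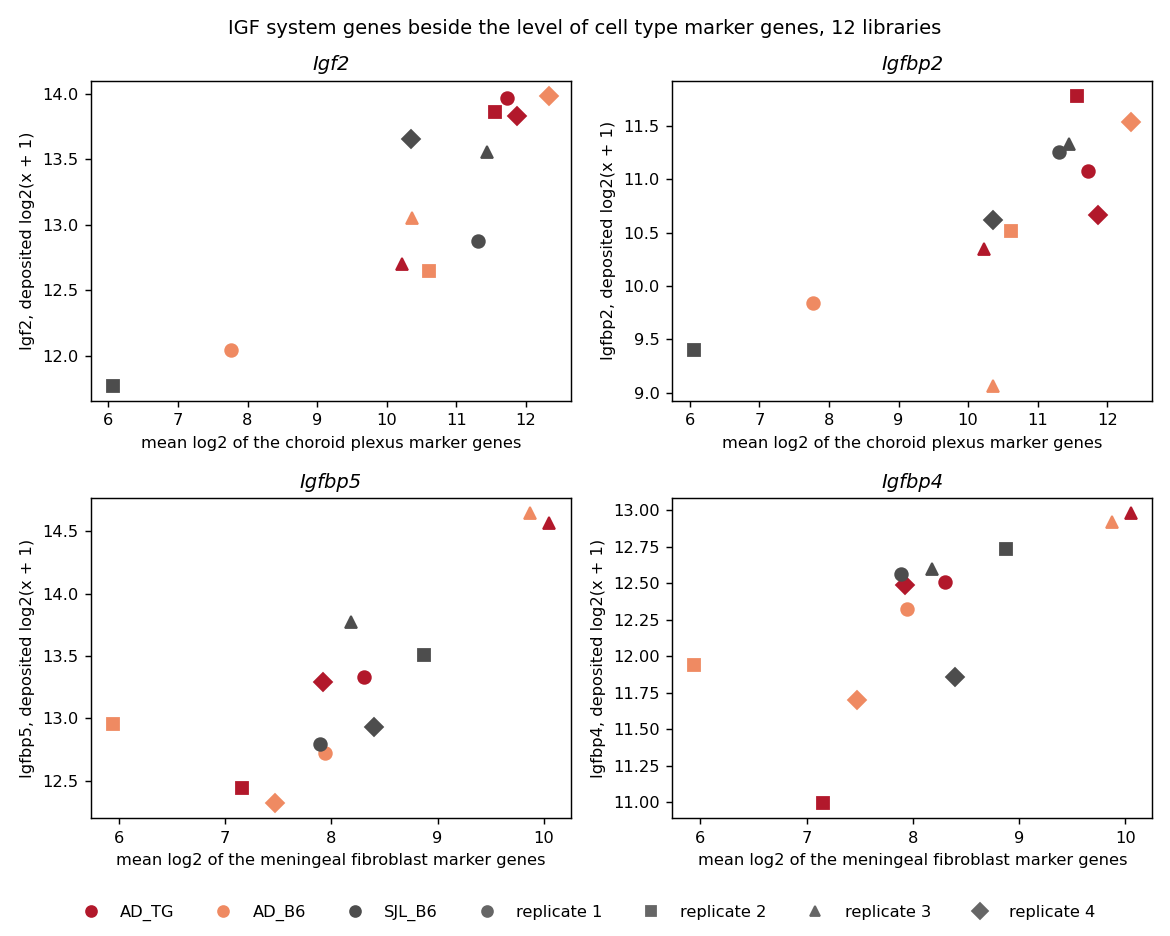
Level of Igf2, Igfbp2, Igfbp5 and Igfbp4 (y axis, deposited log2) against the mean log2 of the choroid plexus or meningeal fibroblast markers (x axis) in 12 libraries, coloured by group. Igf2 is lowest in the 2 libraries with the lowest mean log2 of choroid plexus markers (6.06 and 7.77), and Igfbp5 is highest in the 2 with the highest fibroblast markers.

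Among themselves the members formed pairs. Over the 45 pairs of these 9 genes and H19, the imprinted noncoding RNA beside Igf2, 3 pairs passed (family chosen after the data were seen, two-sided permutation tests, adjusted over the 45). Igfbp4 and Igfbp5 had r = 0.79 (adjusted permutation p = 0.0326; rho 0.87, adjusted permutation p = 0.018). Igf1r and Igfbp2 had r = 0.78 (adjusted permutation p = 0.0326; rho 0.76, adjusted permutation p = 0.0941). Igfbp4 and H19 had r = 0.81 (adjusted permutation p = 0.0326; rho 0.79, adjusted permutation p = 0.0693).

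These values moved when libraries were left out. Without the 2 libraries farthest from the median, r was 0.78 for Igfbp4 with Igfbp5, 0.62 for Igf1r with Igfbp2 (permutation p = 0.0599) and 0.70 for Igfbp4 with H19. With any 1 library left out, r ran from 0.76 to 0.85, from 0.64 to 0.91 and from 0.77 to 0.89 for these pairs. Within the 7 libraries that list unread genes at 0, it was 0.80 (permutation p = 0.0392), 0.69 (permutation p = 0.0847) and 0.87 (permutation p = 0.00588) for the same pairs. Igf2 and its clearance receptor gene Igf2r had r = 0.75 (rho 0.64, adjusted permutation p = 0.0556 for r), which was 0.39 without the 2 farthest libraries.

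H19 shares enhancers with Igf2 and, in tissues where Igf2 is imprinted, is read from the opposite parental copy. It had the r of smallest size with Igf2 among the 45 pairs. H19 had 14.23, 11.74, 13.92 and 13.20 in AD_TG, against 12.64, 11.87, 13.29 and 11.99 in AD_B6 and 13.40, 12.82, 13.42 and 12.51 in SJL_B6. The AD_TG libraries held both the lowest and the highest value. Its r with Igf2 over the 12 libraries was 0.0015 (adjusted permutation p = 0.996). With the fibroblast list H19 had r = 0.67 (rho 0.62, permutation p = 0.0151, adjusted p = 0.0907 over 6 lists).

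Igfbp2 had a negative r with both Igfbp4 and Igfbp5. Its r was -0.60 with Igfbp4 (adjusted permutation p = 0.207) and -0.58 with Igfbp5 (adjusted permutation p = 0.241), neither past the threshold. Igf1r had r = -0.62 with Igfbp5 (adjusted permutation p = 0.207), and Igf1 passed with no partner. Without the 2 libraries farthest from the median, r was -0.47 for Igfbp2 with Igfbp4 and -0.34 for Igfbp2 with Igfbp5. For Igf1r with Igfbp5 it was then -0.31. Igfbp2 and Igfbp5 are neighbours on chromosome 1, on opposite strands.

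**Figure D4:**
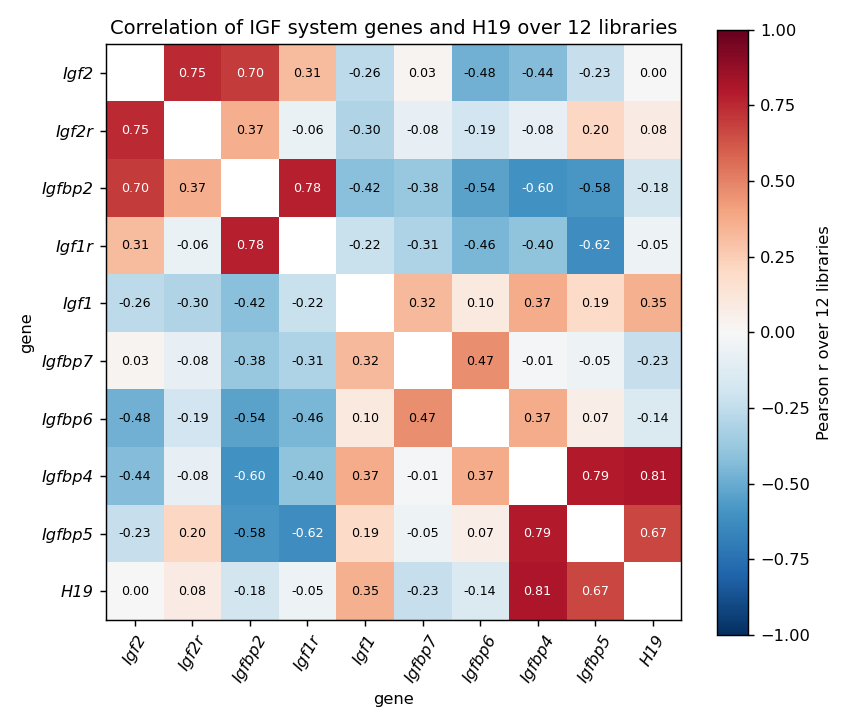
Pearson correlation between IGF system genes and H19 over 12 libraries, red for positive and blue for negative. Igf2, Igf2r, Igfbp2 and Igf1r hold mostly positive values at the upper left, led by 0.78 for Igf1r with Igfbp2, and Igfbp4, Igfbp5 and H19 positive ones at the lower right.

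The genes most like each member were taken as the 3 with the highest Pearson r over the 12 libraries among 4940 others with reads in all, a ranking of many with no test. For Igf2 they were C1qtnf5 (0.92), Enpp2 (0.92), which encodes autotaxin, and Kcnk1 (0.91), a potassium channel gene. For Igfbp2 they were Prdm16 (0.93), Metrn (0.93) and Slc4a5 (0.88), a bicarbonate transporter gene that is in the choroid plexus list. These values over 12 libraries include the 2 that stood apart on that list; without them, a setting chosen after seeing the data, r was 0.86, 0.85 and 0.78 for the genes of Igf2 and 0.91, 0.89 and 0.83 for those of Igfbp2, in the same order. For Igfbp5 they were the collagen gene Col1a2 (0.88), which is in the fibroblast list, and the matrix genes Emilin1 (0.88) and Smoc2 (0.87). For Igf1r, Kat5 led with 0.94, for Igf2r Pam with 0.90, for Igfbp4 Gm11744 with 0.89, for Igf1 Prrx2 with 0.85, for Igfbp6 Sema3f with 0.89 and for Igfbp7 Polr2b with 0.89.

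Of 70 other genes of the pathway, 53 could be tested and 0 were called in any comparison by limma. At an unadjusted p below 0.05 the counts were 3, 3 and 1 of 53 for AD_TG against AD_B6, AD_B6 against SJL_B6 and AD_TG against SJL_B6, beside the 5.35, 5.41 and 2.99% of all genes tested. Groups failed to overlap in 1, 3 and 1 of the 53, beside 2.88, 2.82 and 2.53% of all genes tested. The median difference was 0.45, -0.32 and 0.10, close to that of all genes tested. Igfbp1, the liver binding protein, was listed at 0 in all 12 libraries, and Igfals, the acid-labile subunit of the blood complex, had reads in 1. The insulin receptor gene Insr had reads in all 12 and the protease gene Pappa in 11.

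In AD_TG against AD_B6 the smallest p-values in the higher direction belonged to Cish, an inhibitor of growth hormone signalling (difference 4.37), Sos1, the RAS exchange factor (3.09), and H19 (0.83), and in the lower direction to Foxo4, a transcription factor restrained by AKT (-2.93), Tsc2 (-0.57) and Mapk3 (-0.34). None passed, with adjusted p of 0.871 to 0.922 in limma. Cish and Sos1 were both listed at 0 in AD_B6 replicate 3, on which their differences partly rest, and no fold is read from them. Foxo4 had 8.03, 0, 7.71 and 7.52 in AD_TG and 8.24, 8.31, 9.62 and 8.80 in AD_B6, so these groups did not overlap, with 1 AD_TG library listed at 0.

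In AD_B6 against SJL_B6 the smallest p-values in the lower direction belonged to Jak2, the kinase of the growth hormone receptor (-6.24), Timp1, a metalloprotease inhibitor (-5.25), and Htra3, a serine protease (-2.40). Those in the higher direction belonged to Rptor (3.78), Pik3ca (1.24) and Mmp2 (1.72), and all 6 had an adjusted p of 0.869 to 0.902 in limma. Timp1 was listed at 0 in AD_B6 replicates 2 and 3, and Mmp2 at 0 in SJL_B6 replicate 2. Rptor was listed at 0.07 and 0 in SJL_B6 replicates 3 and 4. These differences rest partly on such libraries, and no fold is read from them. Jak2 had 2.73, 0, 0 and 2.31 in AD_B6 against 8.28, 6.89, 6.35 and 8.47 in SJL_B6, without overlap. Ghr, the growth hormone receptor gene, and Grb2, an adaptor of receptor kinases, were the other two without overlap, named after their values were seen. Ghr had 5.20, 0, 3.00 and 0.03 in AD_B6 against 6.69, 5.94, 8.32 and 7.54 in SJL_B6.

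In AD_TG against SJL_B6 Mapk3, the gene of the kinase ERK1, had 10.15, 10.80, 10.48 and 10.90 in AD_TG against 12.27, 12.16, 11.27 and 11.08 in SJL_B6. The groups did not overlap, and the difference was -1.12 (SE 0.41, adjusted p = 0.999, limma). Foxo4 (-2.38) and the protease gene Htra1 (-1.55) had the next smallest p-values in the lower direction. The smallest in the higher direction belonged to Pik3cb (3.98), Airn (3.70) and Timp3 (0.43), and none of these 5 passed the threshold (adjusted p = 0.999, limma). Pik3cb was listed at 0 in SJL_B6 replicates 2 and 4, and Airn at 0.02 and 0 in SJL_B6 replicates 1 and 4. Their differences rest partly on these libraries, and no fold is read from them.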

How the data were processed

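RNA of 12 libraries was read with Lexogen QuantSeq, per the labels' protocols. Each library's file holds log2 values of gene symbols as deposited by the authors; the scaling is not given in the sources used here. Bowtie2, bedtools and the build hg19, a human build, are named per the submitters' processing notes, and no coordinates of that build were used. Of 23282 entries, 44 repeats of 35 symbols were left out. Low linear values lay on even steps of 0.698 to 1.75 (90.8 to 100% within 0.15 step below 20), taken as 1 read, which gave the estimated reads; a gene had reads at a linear value of 0.3 or more. Genes at a linear value of 10 or more in 4 libraries (11955) were tested in 1 fit of 12 libraries with limma 3.58.1 in R 4.3.3 (eBayes with trend, Benjamini-Hochberg, threshold 0.05); intervals are 95%. The fit was run on the deposited values shuffled within each gene with known log2 changes added, as a loose check that their size was returned. Correlations used permutation tests computed with numpy 2.4.6, with ranks from scipy 1.17.1. The named genes were the 10 members and, per comparison and direction, the 3 pathway genes with the smallest p. Marker lists are averaged over all their genes. The members and lists were chosen with earlier results of these data known. Alternatives changed the filter, pseudocount, scaling, variance model, groups fitted, replicate term and libraries. Promoter windows are RefSeq's, GRCm38.p6.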

Additional observations from a re-analysis of the deposited data

Results flagged for a closer look

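In 2 of 30 groups of 4 libraries (10 genes in 3 groups), 1 library lay far from the other 3 relative to the group's range, past Dixon's critical value of 0.829, which chance exceeds in about 1 of 20 groups. Igf2 stood at 12.701 in AD_TG replicate 3, with the other AD_TG libraries at 13.84 to 13.97 and a gap of 0.892 of the range. Without that library the difference AD_TG minus AD_B6 was 1.01, against 0.66 with it. The same library had the lowest choroid plexus markers of its group (10.23) and the highest fibroblast markers of all 12 (10.05), and their part in the value was not tested. Igfbp6 stood at 8.687 in AD_B6 replicate 1, with the other AD_B6 libraries at 9.03 to 9.10 and a gap of 0.832 of the range. That group's range was narrow, so the distance itself was small.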

How the results depend on the processing

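No IGF system gene was called in any comparison under any alternative, the lowest adjusted p being 0.641 in limma, and 17 of 30 differences kept their sign in every alternative that gave a value (21 for each gene, 20 for Igfbp3, which was not read in all libraries). Over all genes, 0 were called in each setting except without a variance trend, where 10, 10 and 2 were called in AD_TG against AD_B6, AD_B6 against SJL_B6 and AD_TG against SJL_B6, none of them a member or pathway gene; the cause was not tested. At an unadjusted p below 0.05, counts were 204, 245 and 151 of the 4950 genes read in all libraries, where fewer genes were tested, and 578 for AD_TG against SJL_B6 without a filter. Quantile scaling brought the median difference of all genes to 0.17 for AD_TG minus AD_B6 and -0.12 for AD_B6 minus SJL_B6 and changed no member's sign. The replicate numbers showed no clear pairing of the libraries. Same-number deviations correlated at -0.0153 to 0.067 (median 0.0108, against -0.0089 for other numbers), and 4 of 12 libraries correlated best with their own number. Whether libraries of 1 number were handled together was not tested. The replicate block gave 0 calls and 685, 685 and 376 genes at an unadjusted p below 0.05 in limma.

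With 1 library left out, differences changed sign for AD_TG minus AD_B6 in Igf1 (-0.57 to 0.19), Igf2r (-0.50 to 0.36), Igfbp4 (-0.22 to 0.44) and Igfbp5 (-0.14 to 0.75). For AD_B6 minus SJL_B6 they did in Igf1 (-0.60 to 0.14), Igf2 (-0.43 to 0.26), Igf2r (-0.11 to 0.75), Igfbp5 (-0.59 to 0.19), Igfbp7 (-0.34 to 0.0766) and Mmp2 (-0.50 to 2.55). For AD_TG minus SJL_B6 they did in Igf2r (-0.0258 to 0.55), Igfbp2 (-0.10 to 0.54), Igfbp4 (-0.44 to 0.22) and Igfbp5 (-0.23 to 0.48). With the way a file lists unread genes as a term, chosen after seeing the data, Igf1 (0.0026), Igf2r (-0.13) and Igfbp4 (-0.0477) changed sign in AD_TG minus AD_B6 and Igf2 (0.0631) in AD_B6 minus SJL_B6.

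The relations that passed, 2 in all, became 5 with group means subtracted (adding Igfbp2 and Igf2r with the choroid plexus list and Igfbp2 with the macrophage list), 1 with quantile scaling, 1 with Spearman's rho (chosen after seeing the data) and 0 in the 7 libraries that list unread genes at 0, where fewer libraries were tested. They ran from 0 (without AD_B6 replicate 1) to 2 with 1 library left out. With group means subtracted, values were shuffled over all 12 libraries regardless of group. Those p-values therefore tend to be too small, and the added calls are uncertain. For Igfbp2 and Igf2r with the choroid plexus list the adjusted permutation p was 0.0481 and 0.0496. The small number of libraries a group and the low counts of Igfbp3 and Igfbp6 limit what could be seen.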
